A study of Homo sapiens with 2 samples.

Results

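Small nucleolar RNA host genes are described here in Seg-1 cells, a human line that the labels give as lung adenocarcinoma and as identical to H460. Members were the 10 long non-coding host genes GAS5, SNHG1, SNHG3, SNHG5, SNHG6, SNHG7, SNHG8, SNHG12, SNHG15 and SNHG16, out of 19784 genes named on the array. Every probe set annotated to exactly 1 of these symbols was taken, which gave 18 probe sets. The FGF-AS siRNA, directed at the NUDT6 transcript that runs antisense to FGF2, was compared with a negative control siRNA lacking homology to known genes. Both cultures received siRNA in a lipid carrier, at a final concentration between 25 and 200 nM that is not given per array, and both were harvested at 72 hours. Each group held 1 array, no culture was left untransfected, and no p-value or replicate error can be given.

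Small nucleolar RNAs guide the chemical modification and the processing of ribosomal RNA. In human cells most of them lie inside introns and are released when the host transcript is spliced: the intron is debranched, its ends are trimmed, and core proteins protect the guide RNA. Box C/D guides direct 2'-O-methylation and box H/ACA guides direct pseudouridylation. The host genes treated here encode no known abundant protein, and for several of them, GAS5 among them, the spliced RNA is degraded by nonsense-mediated decay when it is translated. Several also start with a run of pyrimidines, as do the mRNAs of ribosomal proteins, a group known as 5' terminal oligopyrimidine (5'TOP) RNAs.

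Of the 18 probe sets, 1 carried the host symbol alone and 17 also listed small RNAs. All 29 small RNA genes listed lay inside the span of their host in RefSeq, so these probe sets were read as host probe sets. Labelling began from oligo-dT, and mature small nucleolar RNAs carry no poly(A) tail. Whether a probe set covers exons or introns of the host was not examined. GAS5 had 5 probe sets, SNHG12 had 3, SNHG7 and SNHG16 had 2 each, and the other 6 hosts had 1 each.

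RefSeq start sites (build GRCh38.p14) were available in the table used here for 8 hosts, without SNHG6 and SNHG15. The letters TATAA occurred between 45 and 15 bases before the start, on the sense strand, in 4 of 8 hosts (SNHG5, SNHG7, SNHG8 and SNHG12), and in 4.09% of all 35116 promoters of the same length. A pyrimidine run, searched as a C followed by at least 4 letters that are each C or T and beginning between 10 bases before and 15 bases after the start on the sense strand, occurred in 5 of 8 hosts and in 35.5% of all promoters. The palindrome CACGTG, the E-box letters, lay in the window of SNHG7 alone among the 8 and in 7.26% of all promoters. CCAAT on either strand lay in those of GAS5 and SNHG5 and in 34.6% of all. A match of letters is not a bound site. The 5 hosts with a pyrimidine run are printed from 40 bases before to 40 bases after the start, 5' to 3', because these letters are shared by members and were not used to choose them. Capitals mark TATAA and the pyrimidine run. Each run was taken from its first C, so the longer run of SNHG7 that begins further upstream than the searched stretch stays in lower case.
SNHG5, chr6:85678694-85678773, minus strand: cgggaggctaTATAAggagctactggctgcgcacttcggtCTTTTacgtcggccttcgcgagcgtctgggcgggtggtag
SNHG7, chr9:136728145-136728224, minus strand: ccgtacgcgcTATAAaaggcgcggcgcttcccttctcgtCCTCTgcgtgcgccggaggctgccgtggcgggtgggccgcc
SNHG8, chr4:118278722-118278801, plus strand: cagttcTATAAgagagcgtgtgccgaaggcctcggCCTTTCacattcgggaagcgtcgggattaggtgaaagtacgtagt
SNHG12, chr1:28581834-28581913, minus strand: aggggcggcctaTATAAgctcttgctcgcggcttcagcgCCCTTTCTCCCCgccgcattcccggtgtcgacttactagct
SNHG16, chr17:76557724-76557803, plus strand: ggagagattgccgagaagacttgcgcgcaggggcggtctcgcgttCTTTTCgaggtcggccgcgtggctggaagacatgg
In SNHG5 and SNHG7 the letters TATAA began 30 bases before the start. The run of SNHG12 was 12 letters long. SNHG16 had the run without TATAA in the searched stretch. Its run began 5 bases after the start and that of SNHG8 began 5 bases before it, so a run found here need not open the RNA. GAS5 had no run by this search.

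The values are signals, each summarising the short probes of a set in arbitrary units on a linear scale. On all non-control probe sets their median was 23.1 on the FGF-AS siRNA array and 25.5 on the control siRNA array, and how the arrays were scaled to each other is unknown. For the log2 ratio, FGF-AS siRNA over control siRNA, 6.1 was added to both signals, which understates differences of dim probe sets. A probe set counted as measured at a mean signal of at least 23.85, the median over probe sets, and as bright at 145.15, the 75th percentile. Probe sets of the same gene disagreed by an SD of 0.36 in log2 ratio (1.28-fold) when bright, over 3053 genes, and of 0.58 when dimmer. These SDs come from the same 2 arrays and hold no variation between cultures. NUDT6, the gene of the targeted transcript, read 104.5 with FGF-AS siRNA and 376.9 with control siRNA on 230329_s_at, and 77.8 with FGF-AS siRNA and 267.0 with control siRNA on 220183_s_at. FGF2, the overlapping sense gene, had log2 ratios of 0.43 and 0.05. Marker signals were summed over every listed gene named on the array, those under the minimum included. Of 5 epithelial markers 4 were measured and CDH1 was under the minimum, and all 5 summed to 13481.9 with FGF-AS siRNA and 13979.6 with control siRNA. Of 5 lung markers 3 were measured and NKX2-1 and SCGB1A1 were under the minimum, and all 5 summed to 218.6 with FGF-AS siRNA and 202.3 with control siRNA. Squamous (1 of 4 measured), glandular (3 of 4), fibroblast (3 of 5) and leukocyte (3 of 4) lists summed to between 62.5 and 333.9 with FGF-AS siRNA and between 88.0 and 536.9 with control siRNA.

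Host genes were measured on all 18 probe sets, and none differed by 2-fold between the arrays. Among all measured probe sets with 1 gene symbol, 1.94% passed 2-fold upward and 5.33% downward in FGF-AS siRNA cells. At 1.5-fold, no host probe set was higher, against 7.53% of all, and 2 of 18 were lower, against 15.1% of all. Among the 14 bright host probe sets 0 were higher and 2 lower, against 5.32% higher and 9.39% lower of all bright probe sets. Quantile normalization and loess each gave 1 higher and 2 lower of 18, and median centring 0 higher and 1 lower. The shares over all probe sets were not computed under these scalings, so these counts have no baseline here. Without such scaling the 2 lower were 224601_at of SNHG16 and 229050_s_at of SNHG7. In bulk RNA such a value cannot tell fewer cells with the transcript from less transcript per cell. Log2 ratios ran from -0.68 to 0.48 with a median of 0.05, and 10 probe sets were above 0 and 8 below. By gene, each taken at its brightest probe set, the median of the 10 hosts was -0.03 (lowest -0.60 for SNHG7, highest 0.36 for SNHG12) and that of all 12361 measured genes was -0.02. The host median turned to 0.03 under median centring of the arrays and to 0.05 without the suffixes _s_at and _x_at, and stayed below 0 under quantile normalization and loess. Across genes the SD was 0.26 for the hosts, 0.48 for all measured genes and 0.38 for the 7728 bright genes. The host SD holds brightest probe sets only, without 224601_at of SNHG16 (-0.68) and 1552729_at of SNHG7 (0.48). No SD over genes of matching signal was computed. Of the 10 hosts, 9 were bright at their brightest probe set.

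**Figure D1:**
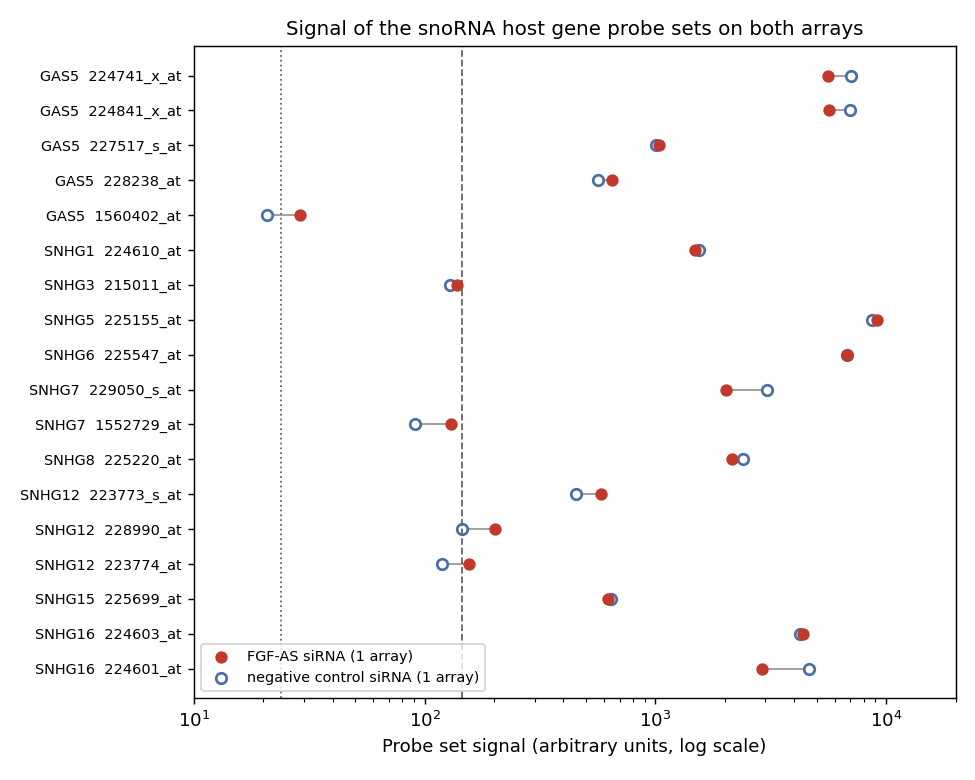
Signal of each of the 18 host probe sets (arbitrary units, log axis) on the FGF-AS siRNA array (filled) and the negative control siRNA array (open), 1 array each, with the dotted line at 23.85 and the dashed line at 145.15. The points of most rows nearly coincide, and the widest gap on a linear scale is that of 224601_at of SNHG16, at 2902.5 with FGF-AS siRNA and 4641.2 with control siRNA.

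SNHG16 hosts the SNORD1 box C/D guides and was first described in neuroblastoma. Its probe set 224601_at read 2902.5 with FGF-AS siRNA and 4641.2 with control siRNA. This was 62.5% of control, a log2 ratio of -0.68 (1.60-fold lower), and larger than the SD of 0.36. Its other probe set, 224603_at, read 4384.4 with FGF-AS siRNA and 4240.2 with control siRNA, a log2 ratio of 0.05. The probe sets thus disagreed, with 1 lower and 1 level within the SD. Their ratios lay 0.72 apart. Of 3333 genes with exactly 2 measured probe sets, 22.4% were at least that far apart, and of 1992 genes with exactly 2 bright ones, 11.1% were. The ratio of 224601_at ran from -0.69 to -0.62 over the alternatives tried, so no scaling turned its direction.

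SNHG7, the host of the SNORA17 box H/ACA guides, showed the widest disagreement of the 4 hosts with several probe sets. Probe set 229050_s_at read 2019.9 with FGF-AS siRNA and 3055.0 with control siRNA, which is 66.1% of control (log2 ratio -0.60, 1.51-fold lower). The dimmer 1552729_at read 129.7 with FGF-AS siRNA and 91.0 with control siRNA, a log2 ratio of 0.48. The brighter probe set was lower by more than its SD of 0.36, and the dimmer was higher by less than its SD of 0.58. Their ratios lay 1.08 apart, a distance reached by 9.69% of genes with exactly 2 measured probe sets. With FGF-AS siRNA the gene was lower or higher depending on the probe set, and no level for SNHG7 as a whole was resolved.

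Both lower probe sets are among the brighter ones, where ratios spread less. With a mean signal of at least 2000, a level set after the values were seen, 1369 probe sets of single genes were found, of which 1.61% were at least 1.5-fold lower and 2.41% at least 1.5-fold higher with FGF-AS siRNA. Of the 8 host probe sets at that level, 2 were lower and 0 higher. The level keeps both lower probe sets and leaves out those of SNHG12 and the higher one of SNHG7, so these shares are not a test. At the signal minimum 2 of 18 were lower, against 15.1% of all. The median log2 ratio of the 8 was -0.23, and 6 of 8 were below 0, among them both _x_at probe sets of GAS5. The median and the share below 0 of all 1369 probe sets were not computed, so these 2 values have no baseline here. These 8 came from only 6 hosts: GAS5 and SNHG16 gave 2 each, and SNHG5, SNHG6, SNHG7 and SNHG8 gave 1 each.

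**Figure D2:**
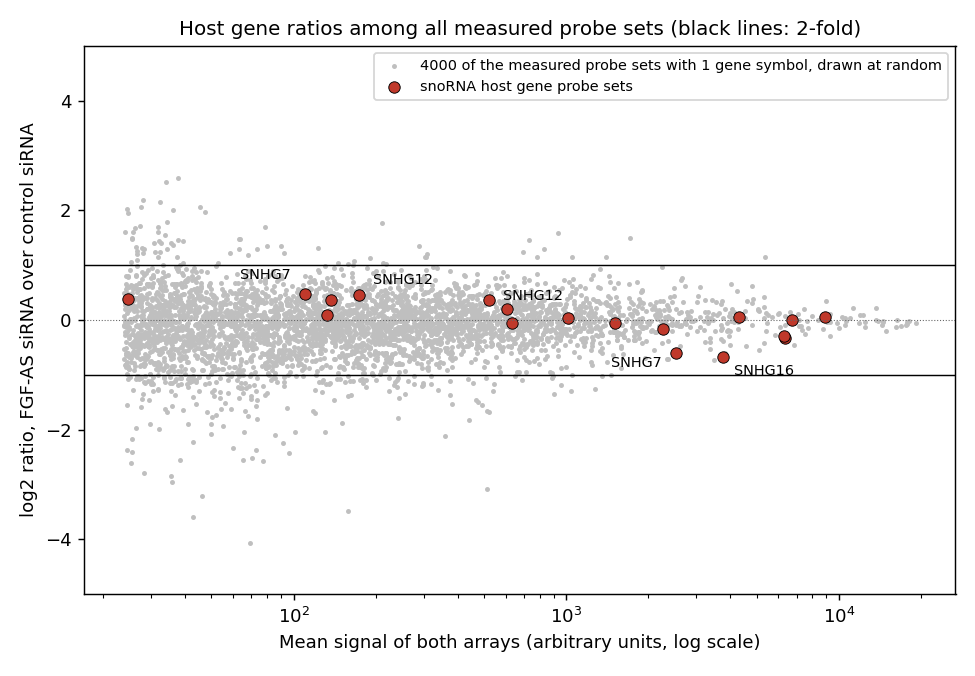
Log2 ratio of FGF-AS siRNA over negative control siRNA against the mean signal of both arrays (arbitrary units, log axis), for the 18 host probe sets (red) and for 4000 randomly drawn measured probe sets of single genes (grey). No host point reaches the 2-fold lines, and the lowest are those of SNHG16 at -0.68 and SNHG7 at -0.60.

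GAS5, named for its accumulation in growth-arrested cells and known to bind the glucocorticoid receptor, hosts a series of box C/D guides. Its probe sets 224741_x_at and 224841_x_at read 5627.1 and 5676.8 with FGF-AS siRNA and 7075.0 and 6955.6 with control siRNA. These are log2 ratios of -0.33 and -0.29, at 79.5% and 81.6% of control. The suffix _x_at marks probe sets whose probes can also bind other transcripts, and both ratios were smaller than the SD of 0.36. Probe set 227517_s_at read 1036.0 with FGF-AS siRNA and 1002.8 with control siRNA (log2 ratio 0.05), and 228238_at read 647.6 with FGF-AS siRNA and 564.1 with control siRNA (0.20). The dim 1560402_at, the only host probe set with no small RNA beside the host symbol, read 28.8 with FGF-AS siRNA and 20.7 with control siRNA (0.38). In all, 2 probe sets were lower and 3 higher, and the mean of the measured probe sets was 0.0004. Their range of 0.71 was matched or exceeded by 66.3% of the 279 genes with exactly 5 measured probe sets, so GAS5 disagreed no more than most such genes.

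SNHG12, which hosts guides of both boxes, was the only host with several probe sets that all had the same sign. Probe set 223773_s_at read 584.1 with FGF-AS siRNA and 453.9 with control siRNA, a log2 ratio of 0.36. Probe set 228990_at read 201.1 with FGF-AS siRNA and 145.4 with control siRNA, a ratio of 0.45. Probe set 223774_at read 155.7 with FGF-AS siRNA and 119.0 with control siRNA, a ratio of 0.37. All 3 were between 1.28-fold and 1.37-fold higher with FGF-AS siRNA and lay within 0.09 of each other. The ratio of 223773_s_at only just exceeded the SD of 0.36 for bright probe sets, and that of the dimmer 223774_at was smaller than its SD of 0.58. Of 1665 genes with exactly 3 measured probe sets, 1.80% had all of them higher by at least the smallest of these ratios. In 5.29% all of them were lower by at least that size. The cut was taken from the values of SNHG12 itself, so these shares are not a test. Over the alternatives the 3 ratios ran from 0.35 to 0.57.

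**Figure D3:**
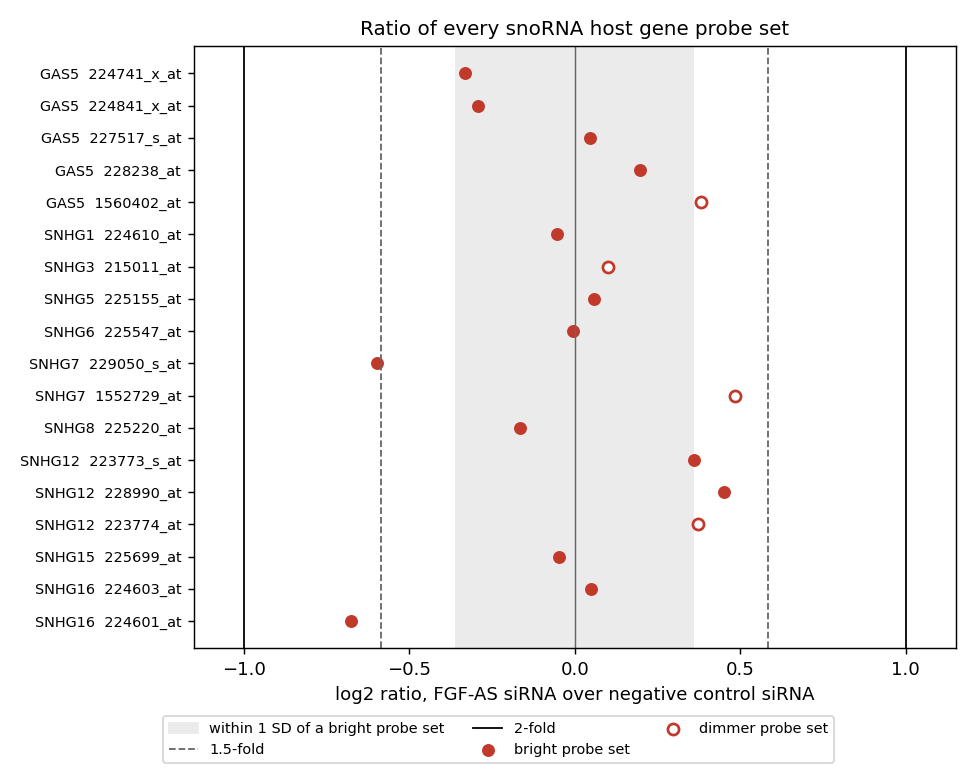
Log2 ratio of each host probe set, FGF-AS siRNA over negative control siRNA, for bright (filled) and dimmer (open) probe sets, with the SD of a bright probe set (0.36) as a grey band and lines at 1.5-fold and 2-fold. The 3 probe sets of SNHG12 lie together between 0.36 and 0.45, while those of SNHG7 lie at -0.60 and 0.48.

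The 6 hosts with 1 probe set each differed by less than the SD. SNHG5, host of the SNORD50 guides, read 9100.7 with FGF-AS siRNA and 8731.8 with control siRNA (log2 ratio 0.06). SNHG6, host of SNORD87, read 6746.1 with FGF-AS siRNA and 6773.7 with control siRNA (-0.01). SNHG1, host of SNORD22 and 7 further listed box C/D guides, read 1486.4 with FGF-AS siRNA and 1541.7 with control siRNA (-0.05). All 3 host box C/D guides, and their signals on both arrays were nearly equal. SNHG15, host of SNORA9, read 623.1 with FGF-AS siRNA and 643.7 with control siRNA (-0.05). SNHG3, host of the SNORA73 guides that act in ribosomal RNA processing, read 137.9 with FGF-AS siRNA and 128.3 with control siRNA (0.10) and was dimmer than the bright minimum. SNHG8, host of SNORA24, read 2141.9 with FGF-AS siRNA and 2402.4 with control siRNA (-0.17). The signs of SNHG1, SNHG6 and SNHG15 turned under median centring, to 0.0034, 0.050 and 0.0094, and all 3 lay far inside the SD. A single probe set gives no check of the kind available for SNHG12.

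By guide class, the 5 box C/D hosts (GAS5, SNHG1, SNHG5, SNHG6 and SNHG16) had a median log2 ratio of -0.01, from -0.33 to 0.06, at their brightest probe sets. The 4 box H/ACA hosts (SNHG3, SNHG7, SNHG8 and SNHG15) had a median of -0.11, from -0.60 to 0.10. These ranges overlap. SNHG12, with guides of both classes, stood at 0.36.

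Genes next to the hosts in RefSeq were looked up after the values were seen, as the nearest measured gene on each side. With 6.1 added to both signals, none of the 20 neighbours differed by 2-fold. At 1.5-fold, 1 was higher (7.95% of all measured genes) and 1 lower (9.52%). Without the added 6.1 the signals of both these genes lie more than 2-fold apart, and other offsets were not tried for neighbours. The higher was DIPK1B, whose span overlaps that of SNHG7 and which read 158.8 with FGF-AS siRNA and 77.4 with control siRNA (log2 ratio 0.98). The lower was the dim PRCD beside SNHG16, at 19.0 with FGF-AS siRNA and 40.7 with control siRNA (-0.90). TRNAU1AP, whose span overlaps that of SNHG12 and whose protein acts in selenocysteine tRNA biology, read 161.4 with FGF-AS siRNA and 121.6 with control siRNA (0.39). DIPK1B and TRNAU1AP were both dimmer than the bright minimum, where the SD was 0.58, and TRNAU1AP differed by less than that SD. RCC1, the exchange factor of the Ran GTPase, overlaps SNHG3 and read 1416.7 with FGF-AS siRNA and 1142.2 with control siRNA (0.31). ZBTB37, which overlaps GAS5, was dim and had a ratio of -0.27. Whether these probe sets share sequence with the overlapping host was not examined.

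The hosts were then set beside genes of the same pathway. Each list gene was taken at its brightest probe set with 1 gene symbol, and those without such a probe set dropped out. Hosts were not held to this rule, since 17 of the 18 host probe sets also listed small RNAs. Across 8 lists no measured gene differed by 2-fold, against 2.05% of all measured genes higher and 2.72% lower. Of 12 other non-coding hosts, 6 were measured, with 5 below 0 and a median of -0.29. None of the 6 passed 1.5-fold. Of all 12361 measured genes, 6404 were below 0, with a median of -0.02. EPB41L4A-AS1 was the lowest at 4045.9 with FGF-AS siRNA and 5520.7 with control siRNA (-0.45), and its dimmer probe set gave -0.73. SNHG17 was the highest at 0.20, with -0.05 on its other probe set. The median of this list stayed below 0 over the alternatives tried, from -0.30 to -0.17. Of 26 protein-coding hosts, 16 had a probe set with 1 symbol and 15 were measured. None of the 15 passed 1.5-fold, and the median was -0.04. Their extremes were EIF5, a translation initiation factor, at -0.45 (from -0.29 to 0.61 on 4 others) and CWF19L1 at 0.43 (-0.19 and 0.19 on its others).

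Of 22 5'TOP mRNAs without ribosomal proteins, 17 were measured and 12 were below 0, against 6404 of all 12361 measured genes. The median of the list was -0.04, and it was 0.01 under median centring. EIF2S3, a subunit of initiation factor eIF2, was the only member past 1.5-fold, at 3711.7 with FGF-AS siRNA and 2160.5 with control siRNA (0.78), with 0.57 and -0.51 on its other probe sets. HNRNPA1, an RNA-binding splicing regulator, was the lowest at -0.37, with 0.23 and 0.07 on its dimmer probe sets. Of 8 core proteins of small nucleolar ribonucleoproteins, 6 had a probe set with 1 symbol, and all 6 were measured. Their median was 0.14 and none passed 1.5-fold. SNU13, which binds the box C/D motif, stood highest at 0.47, and GAR1, an H/ACA protein, lowest at -0.23. The 10 assembly factors had a median of 0.01 (-0.15 with the mean over probe sets of each gene). They lay between RUVBL1 at -0.26 and RUVBL2 at 0.40, which encode partner ATPases. The other probe sets of RUVBL2 gave 0.47 and, when dim, -0.53.

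Of 17 nonsense-mediated decay factors 11 were measured. Their median was 0.01, and it was -0.23 with the mean over probe sets of each gene. UPF1, the central helicase of the pathway, read 164.5 with FGF-AS siRNA and 266.7 with control siRNA (-0.68), and its other probe set gave -0.21. DHX34, a helicase that acts with UPF1, read 160.7 with FGF-AS siRNA and 247.1 with control siRNA (-0.60), with -1.79 on a dimmer probe set. RNPS1, a protein of the exon junction complex, read 2129.4 with FGF-AS siRNA and 1333.0 with control siRNA (0.67), with 0.27 on the other. These were the 2 lower and 1 higher members past 1.5-fold. Of 6 coding targets of the pathway, with a median of 0.04, GADD45B (-0.83) and GADD45A (-0.60), both stress genes, were lower past 1.5-fold. Other measured probe sets of GADD45B gave -0.23 and -0.31, short of 1.5-fold. UPP1, a uridine phosphorylase, was higher past 1.5-fold (0.64). The 15 exosome, exonuclease and debranching genes had a median of 0.13. EXOSC9, an exosome subunit, read 942.6 with FGF-AS siRNA and 500.2 with control siRNA (0.91). EXOSC6, another subunit, stood at 0.70 but at -0.42 and -0.62 on its dimmer probe sets, and EXOSC5 was lowest at -0.25. Over all 8 lists, with 84 measured genes, 5 were at least 1.5-fold higher (7.95% of all measured genes) and 4 at least 1.5-fold lower (9.52%). These counts lie near or below the share over all genes. Under quantile normalization 5 were higher and 1 lower, and the shares over all measured genes were not computed under it.

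**Figure D4:**
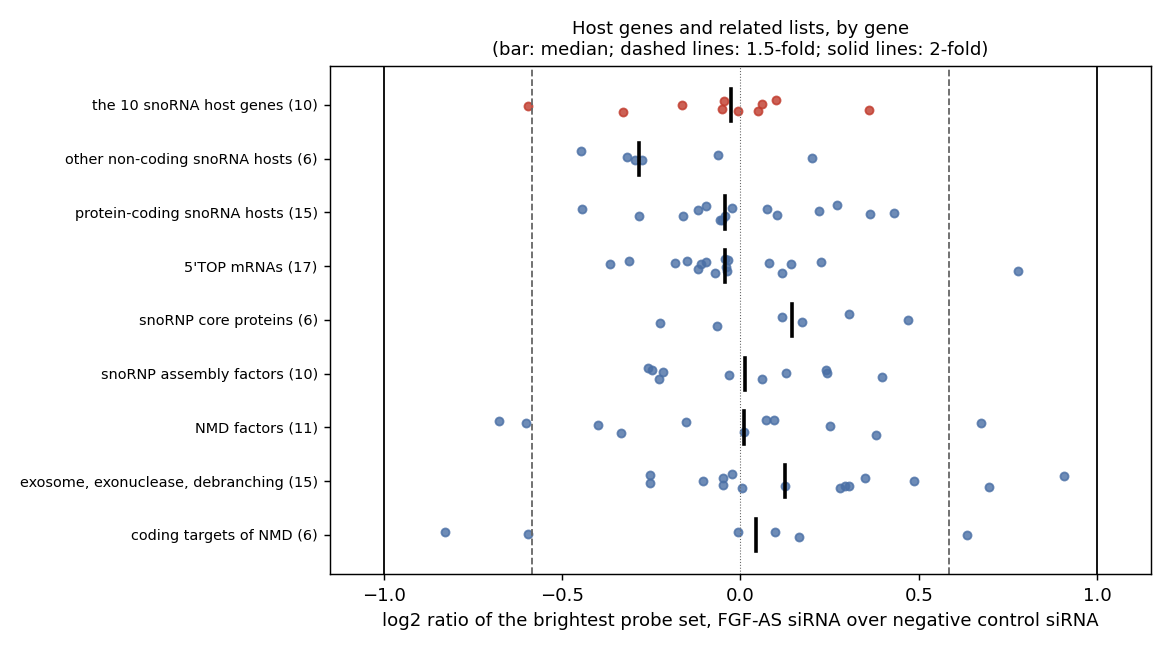
Log2 ratio of the brightest probe set of each measured gene, FGF-AS siRNA over negative control siRNA, for the 10 host genes (red) and 8 related lists (blue, number of genes in brackets), with the median as a bar. No gene reaches the 2-fold lines, and the host genes centre on -0.03.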

How the data were processed

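RNA from 2 Seg-1 cultures, 1 per group, was measured on Affymetrix arrays of 54675 probe sets, of which 62 are controls. The authors deposited 1 linear intensity per probe set and array. GCOS and MAS5 appear in the submitters' processing notes, with version, role and scaling target not given in the sources used here. Detection calls and probe-level data were not used here, and the number of arrays limits the precision.

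Of 54613 non-control probe sets, 41091 had 1 symbol, 1801 several and 11721 none here. The written plan named genes from single-symbol probe sets only. Host genes instead follow the membership rule (exactly 1 member symbol), and all 10 were matched in RefSeq (GRCh38.p14). The added 6.1 is the 25th percentile of signals. Within-gene SDs are pooled over genes. Named list genes are the highest and lowest measured of each list and any past 2-fold, and DHX34, EXOSC6 and GADD45A were added after values were seen as the other members past 1.5-fold, as were the neighbouring genes and the sequence motifs. Members and lists were chosen with earlier results of these data known. With 1 array per group there was no test. Alternatives were the offset, scaling, signal minimum, probe set suffix and averaging of probe sets. Python 3.11.15, numpy 2.4.6, pandas 2.3.3 and statsmodels 0.14.6 (loess) were used, and the code was tested on simulated data.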

Additional observations from a re-analysis of the deposited data

How the results depend on the processing

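No paired analysis was possible because each group holds 1 array. No host probe set passed 2-fold under any of the 8 alternatives that apply to single probe sets, or with single-symbol probe sets only, an alternative chosen after seeing the data. The count of host probe sets at least 1.5-fold lower was 2, and it was 1 under median centring, 1 when the suffixes _s_at and _x_at were left out, and 0 with single-symbol probe sets only, which left 1 host probe set. The count at least 1.5-fold higher was 0, and it was 1 under quantile normalization and 1 under loess (1552729_at of SNHG7, at 0.63 and 0.60). The shares over all probe sets were not computed under the scalings or without the suffixes, so these counts have no baseline. The host median of -0.03 was 0.38 with single-symbol probe sets only, where GAS5 was the only host left, and otherwise ran from -0.05 to 0.05. When the suffixes _s_at and _x_at were left out, GAS5 stood at 0.20 and SNHG7 at 0.48, and with the mean over probe sets GAS5 stood at 0.0004, SNHG7 at -0.06 and SNHG16 at -0.31. Among the 8 lists, the 4 genes at least 1.5-fold lower became 2 under loess, 2 under median centring, 1 under quantile normalization and 1 without the suffixes. The 5 higher became 2 with the mean over probe sets, and the 0 genes past 2-fold became 2 with that mean. For these list counts too, the shares over all measured genes were not computed. With the mean over probe sets the median of the decay factors was -0.23 and that of the assembly factors -0.15, against 0.01 for each at the brightest probe set. The medians of other non-coding hosts, core proteins and the exosome list kept their sign under the 9 alternatives, and those of the other 5 lists did not. Dim probe sets such as 1560402_at of GAS5 lie near the median signal of the array, where a signal cannot be told from background here.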
